A study of Bos taurus with 33 samples.

Results

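The genes described here carry the signal of type I interferons from the cell surface to the nucleus: the receptor chains IFNAR1 and IFNAR2, the kinases JAK1 and TYK2, the transcription factor STAT2, and the interferon regulatory factors IRF1, IRF2, IRF7 and IRF9. They were listed by name, with earlier results of these data known, and every probe set whose single gene symbol matched was taken. TYK2 and IRF1 had no probe set under that symbol in the annotation used here, which leaves 7 of 9 genes and 10 of 24016 probe sets. IRF7 had 3 probe sets, IRF2 had 2, and each of the other genes had 1.

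A type I interferon binds IFNAR1 and IFNAR2 together, and the kinases TYK2 and JAK1, which are bound to these chains, then phosphorylate STAT2. Phosphorylated STAT2 acts with IRF9 in the complex ISGF3, which enters the nucleus and switches on interferon-stimulated genes, and IRF7 is both a target of this complex and an inducer of further interferon genes. In cattle and other ruminants the elongating conceptus secretes interferon tau, a type I interferon that acts on the endometrium and signals pregnancy to the mother.

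Endometrial RNA from 33 Bavarian Simmental heifers was hybridised to the Affymetrix bovine array (1 per animal) after the oestrous cycle of all animals had been synchronised with cloprostenol. In the biopsy experiment, heifers received a lipid extrudate that releases human interferon alpha (IFNA, n = 3), the extrudate alone (placebo, n = 3) or phosphate-buffered saline (PBS, n = 3) in the uterine horn on the side of the corpus luteum on day 14 of the cycle, and about 6 biopsies per animal were taken from that horn on day 16 after flushing. In the pregnancy experiment, heifers inseminated with sperm of 1 bull (pregnant) and heifers given sperm-free supernatant (cyclic) were slaughtered on day 12 (n = 5 and 5), day 15 (n = 3 and 3) or day 18 (n = 4 and 4), and intercaruncular endometrium was taken. The part of the horn sampled differed between these days, so day and position in the horn cannot be told apart, and the ages of the animals are not given in the sources used here. The agent is a human interferon given at 1 time in a carrier, and each biopsy sample pools several pieces of 1 horn.

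Values are log2 expression levels as the authors normalised them, and differences are log2 differences of group means with the standard error (SE) from limma. A difference passed when its Benjamini-Hochberg adjusted p over all 24016 probe sets was below 0.05. The arrays appear to have been normalised in 4 sets (the biopsies and each slaughter day). Group means were therefore tested against each other only within a set. Tests of the difference between effects set a difference within a set against that within another set, and can depend on scaling. The groups of a fit shared their estimate of the spread. Levels across sets are described without a test, mainly from values that were quantile-normalised over all 33 arrays. Stromal markers (6 of 6) and epithelial markers (5 of 6) lay above the array's median in every group. So did most markers of macrophages and dendritic cells (6 or 7 of 7), smooth muscle (3 or 4 of 4) and endothelium (4 or 5 of 6). Of the markers fixed for endometrium, HOXA10 was high in all groups (mean percentile on the array 92.8 to 96.2), PGR was low (16.1 to 22.3) and so was ESR1 (15.1 to 32.8). In bulk tissue, fewer cells of a type and less RNA per cell cannot be told apart.

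STAT2, IRF9 and IRF7 were 2.51 to 6.58 times higher in the endometrium of pregnant animals on days 15 and 18 and 2.69 to 4.99 times higher after IFNA than after placebo, by their highest probe set. None of the 10 probe sets passed the test on day 12 of pregnancy. The receptor chains and JAK1 did not pass in the biopsy comparisons or on days 12 and 15, and IFNAR1 was 1.53-fold lower in pregnant than in cyclic animals on day 18. One IRF7 probe set that rose in pregnancy did not pass the test after IFNA, and another passed nowhere.

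**Figure D1:**
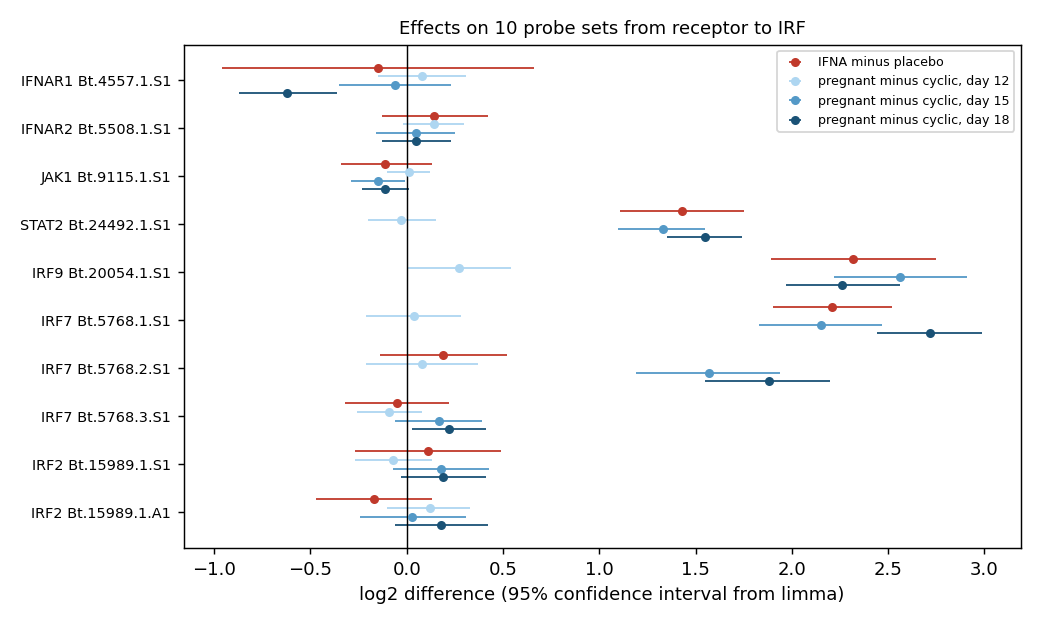
Log2 differences of 10 probe sets in 4 comparisons, with points for the estimates and bars for the 95% confidence intervals from limma. STAT2, IRF9 and the first IRF7 probe set lie between 1.33 and 2.72 for IFNA and for pregnancy on days 15 and 18, the second IRF7 probe set lies at 0.19 for IFNA and at 1.57 and 1.88 on days 15 and 18, and IFNAR1 lies at -0.62 on day 18.

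Counts of the members are given beside the share over the whole array. The members were chosen with earlier results of these data known, so these counts do not test enrichment. IFNA exceeded placebo for 3 of 10 member probe sets, where 0.837% of all probe sets passed as higher. IFNA exceeded PBS for the same number, 3 of 10, where 0.712% of all probe sets passed as higher, and these comparisons share the IFNA arrays. Placebo and PBS differed for 0 of 10 member probe sets by limma and for 0% of all probe sets, and 1 member (IFNAR2) had an unadjusted p below 0.05. On day 12, 0 of 10 passed and 1 had an unadjusted p below 0.05, beside 0.00416% of all probe sets past the threshold in either direction. On day 15, 4 of 10 were higher in pregnant animals, beside 2.75% of all probe sets. On day 18, 4 of 10 were higher beside 8.84% of all probe sets, and 1 of 10 was lower beside 10.2%, which is near the share over the whole array.

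The receptor was examined first. IFNAR1, the chain that binds TYK2, was measured by 1 probe set, and on the bovine assembly ARS-UCD2.0 its gene lies on chromosome 1 between IFNGR2 and IL10RB, with IFNAR2 next in order. Its log2 levels on day 18 were 6.93, 6.63, 6.89 and 6.78 in the cyclic animals and 6.13, 6.41, 6.36 and 5.87 in the pregnant animals. Every pregnant animal lay below every cyclic animal. The difference was -0.62 (SE 0.122, n = 4 and 4, limma adjusted p = 0.0011), and the 13 alternative fits tried, 8 of them without 1 animal, kept it between -0.69 and -0.51 with limma adjusted p-values from 0.000388 to 0.0138.

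IFNAR1 did not differ beyond the spread of the animals in the other comparisons. On day 12 it read 6.13, 5.84, 6.27, 6.20 and 6.20 in cyclic animals and 5.93, 6.41, 6.19, 6.13 and 6.38 in pregnant animals. On day 15 it read 5.05, 4.97 and 4.88 in cyclic animals and 5.11, 4.79 and 4.82 in pregnant animals. The groups overlapped on both days, and the differences were 0.08 (95% confidence interval -0.15 to 0.31) and -0.06 (-0.35 to 0.23). The pregnancy difference on day 18 was 0.56 below that on day 15 (interaction term -0.56, SE 0.187, limma adjusted p = 0.294), which did not pass the test beside 0.208% of all probe sets that did, and 0 of 10 members passed in that contrast (2 had an unadjusted p below 0.05, IFNAR1 and the first IRF7 probe set).

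In the biopsies IFNAR1 was near the lower end of the array. Its levels were 3.66, 3.34 and 3.01 after IFNA, 3.04, 3.06 and 4.36 after placebo, and 3.09, 2.80 and 3.52 after PBS. The third placebo animal stood above all others, and the groups overlapped. The interval of the IFNA minus placebo difference ran from -0.96 to 0.66, which includes the value found for pregnancy on day 18.

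On the quantile-normalised scale the biopsy groups averaged 3.33 to 3.65 for IFNAR1 and the slaughter groups 5.21 to 6.34, with no overlap between the lowest slaughter group and the placebo group next to it. The control probe sets for the 3′ and 5′ ends of GAPDH, whose difference grows as RNA is degraded or incompletely copied, differed by 2.54 on average in the biopsies (1.03 to 3.87) and by 0.15 in the slaughter tissue (-0.16 to 0.56). The part of this difference in the level of IFNAR1 was not tested, and way of sampling and experiment cannot be told apart. Within each biopsy group the animal with the lowest GAPDH difference (1.66 after IFNA, 1.03 after placebo, 1.59 after PBS) had the highest IFNAR1 level. With the GAPDH difference as a covariate in the biopsy fit, IFNAR1 differed by -0.24 between IFNA and placebo (SE 0.164, limma adjusted p = 0.603). Without it the difference was -0.15 (SE 0.359). Among slaughter groups, cyclic animals on day 15 were 0.81 lower than on day 12 and those on day 18 were 1.05 higher than on day 15, with no overlap of animals in either case, also in the deposited values (-1.16 and 1.84).

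IFNAR2, the chain that binds JAK1 and STAT2, did not pass in any comparison. It read 8.58, 8.63 and 8.63 after IFNA, 8.63, 8.51 and 8.27 after placebo, and 8.61, 8.91 and 8.78 after PBS. On day 18 it read 8.35, 8.27, 8.51 and 8.29 in cyclic animals and 8.29, 8.52, 8.59 and 8.23 in pregnant animals. These groups overlapped, and the intervals of the differences were -0.13 to 0.42 for IFNA against placebo and -0.13 to 0.23 for day 18, and the difference found for IFNAR1 on day 18 lies outside both. Placebo minus PBS was -0.30 (95% confidence interval -0.57 to -0.02, unadjusted p = 0.0378, limma adjusted p = 0.999). On day 12 the 5 cyclic animals read 7.64 to 8.01 and the 5 pregnant animals 7.79 to 7.93, and on day 15 the 6 animals read 7.68 to 7.85.

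JAK1, the kinase bound to IFNAR2, stood at the top of the array in every group, with a mean percentile between 97.0 and 98.4. Its levels on day 18 were 11.45, 11.54, 11.56 and 11.53 in cyclic animals and 11.50, 11.38, 11.40 and 11.36 in pregnant animals. It read 11.13, 10.93 and 10.87 in cyclic and 10.90, 10.81 and 10.78 in pregnant animals on day 15. The groups overlapped on both days, and the differences were -0.11 (SE 0.0588, limma adjusted p = 0.213) and -0.15 (SE 0.0679, limma adjusted p = 0.243). After quantile normalisation of all arrays the day 18 difference was -0.16 with a limma adjusted p of 0.0454, so this call depends on the scaling. In the biopsies JAK1 read 11.51, 11.53 and 11.63 after IFNA, 11.78, 11.70 and 11.51 after placebo, and 11.76, 11.79 and 11.65 after PBS. The IFNA animals lay just below the PBS animals without overlap, by -0.18 (SE 0.102, limma adjusted p = 0.727), and overlapped with the placebo animals.

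**Figure D2:**
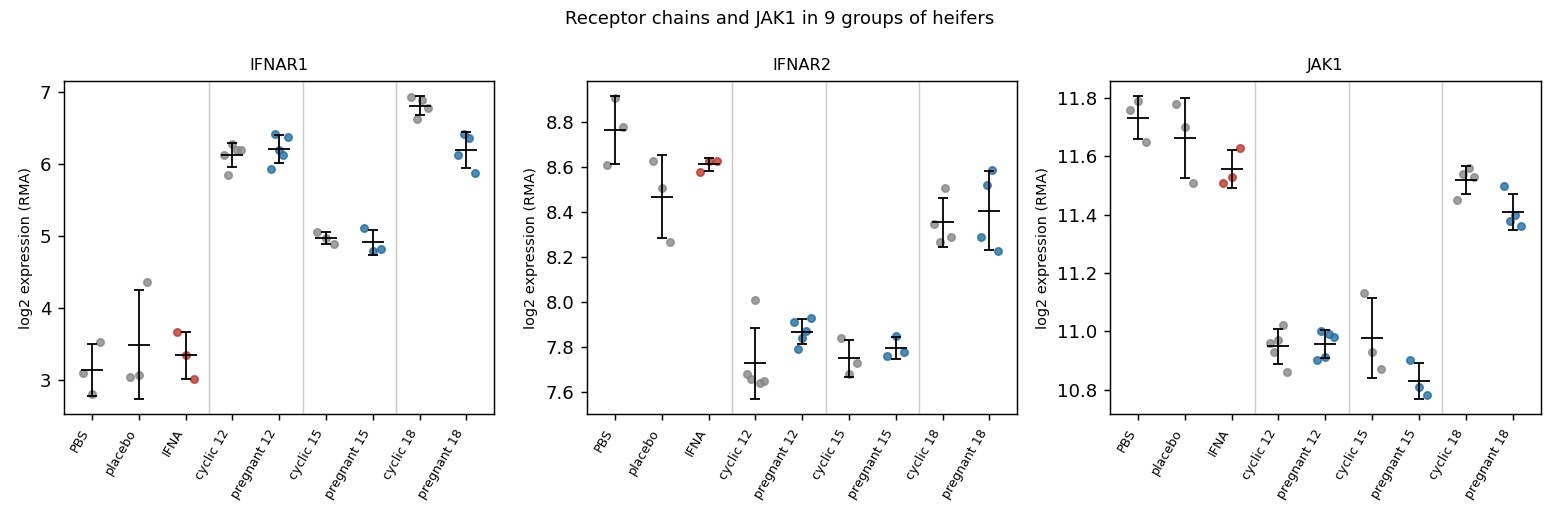
Log2 expression (RMA) of IFNAR1, IFNAR2 and JAK1 by group, with 1 point per animal, a line for the mean and bars for 1 SD, and grey lines between the 4 sets of arrays that appear normalised separately. IFNAR1 lies at 2.80 to 4.36 in the biopsies, and on day 18 the pregnant animals (5.87 to 6.41) lie below the cyclic animals (6.63 to 6.93).

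STAT2 and IRF9, subunits of ISGF3, rose after IFNA and in pregnancy on days 15 and 18. STAT2, the subunit that carries the transactivation domain, read 8.76, 9.17 and 8.85 after IFNA, 7.61, 7.33 and 7.55 after placebo, and 7.24, 7.36 and 7.55 after PBS. All 3 IFNA animals lay above all 6 controls. IFNA exceeded placebo by 1.43 (SE 0.142, limma adjusted p = 0.0014, 2.69-fold) and PBS by 1.54.

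In pregnancy STAT2 was level on day 12, with 7.32 to 7.69 in the cyclic and 7.42 to 7.58 in the pregnant animals. On day 15 the cyclic animals read 7.02, 6.86 and 6.93 and the pregnant animals 8.46, 8.17 and 8.16. On day 18 the cyclic animals read 7.52, 7.53, 7.60 and 7.65 and the pregnant animals 9.07, 8.92, 9.42 and 9.08. Cyclic and pregnant animals did not overlap on either day. The differences were 1.33 on day 15 (SE 0.108, limma adjusted p = 1.55e-08) and 1.55 on day 18 (SE 0.0932, limma adjusted p = 5.5e-11). The difference on day 12 was -0.03 (95% confidence interval -0.20 to 0.15).

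IRF9, the subunit of ISGF3 that binds DNA, read 10.54, 10.58 and 10.58 after IFNA, 8.58, 7.97 and 8.19 after placebo, and 8.17, 8.16 and 8.72 after PBS. All 3 IFNA animals lay above all 6 controls, and the SD over animals was 0.023 after IFNA and 0.309 after placebo. IFNA exceeded placebo by 2.32 (SE 0.19, limma adjusted p = 0.000375, 4.99-fold) and PBS by 2.22.

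On day 15 IRF9 read 8.33, 7.61 and 7.82 in cyclic animals and 10.61, 10.42 and 10.42 in pregnant animals. On day 18 it read 8.77, 9.24, 8.77 and 8.80 in cyclic animals and 11.19, 11.06, 11.27 and 11.11 in pregnant animals. Every pregnant animal again lay above every cyclic animal. The differences were 2.56 on day 15 (SE 0.165, limma adjusted p = 3.73e-10, 5.91-fold) and 2.26 on day 18 (SE 0.143, limma adjusted p = 1.17e-10, 4.8-fold).

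IRF9 had the lowest unadjusted p of the members on day 12. The cyclic animals read 8.67, 8.63, 8.85, 8.37 and 8.32 and the pregnant animals 9.14, 8.67, 8.73, 8.87 and 8.78. The groups overlapped, and the difference of 0.27 (SE 0.128) had an unadjusted p of 0.0463 and a limma adjusted p of 0.747. Leaving out any 1 animal kept it between 0.19 and 0.34, and it never passed.

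**Figure D3:**
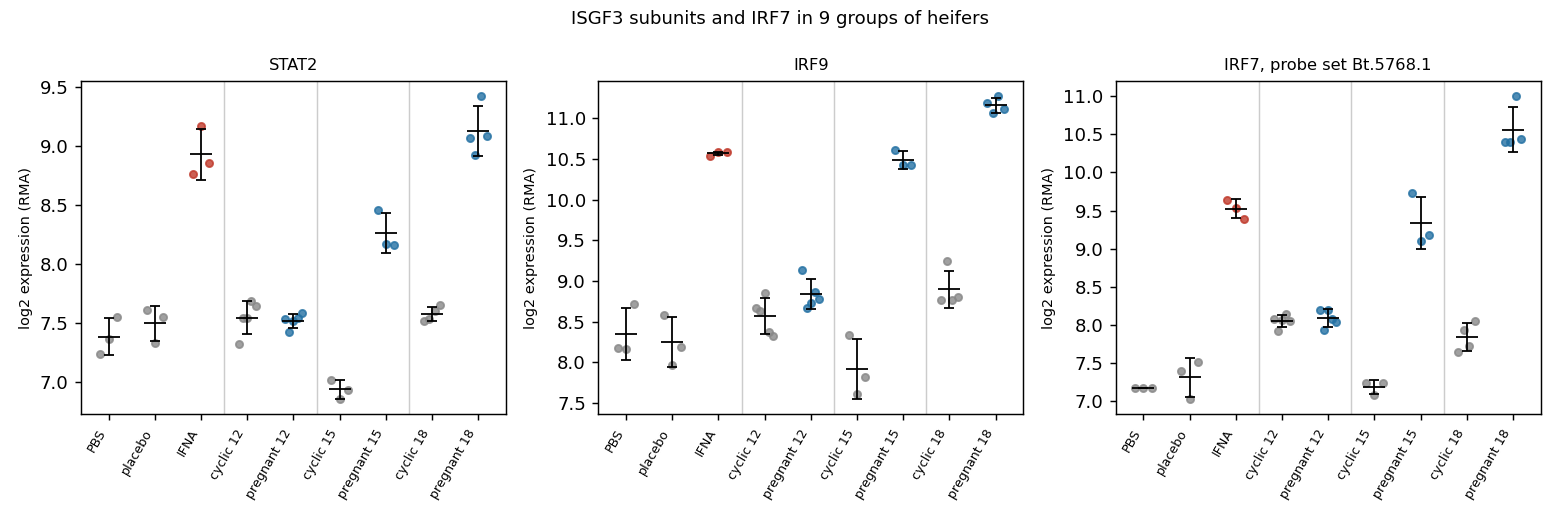
Log2 expression (RMA) of STAT2, IRF9 and the first IRF7 probe set by group, with 1 point per animal, a line for the mean, bars for 1 SD, and grey lines between the 4 sets of arrays. The IFNA group and the pregnant groups of days 15 and 18 lie apart from the other 6 groups for all 3 probe sets, and IRF9 reaches 11.06 to 11.27 in pregnant animals on day 18.

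IRF7, the factor that amplifies interferon production, was represented by 3 probe sets that gave different answers. They are numbered here in the order of their identifiers on the array. The first read 9.64, 9.54 and 9.39 after IFNA, 7.39, 7.03 and 7.52 after placebo, and 7.18 in each of the 3 PBS animals. On day 15 it read 7.24, 7.08 and 7.24 in cyclic and 9.73, 9.10 and 9.18 in pregnant animals, and on day 18 it read 7.65, 7.94, 7.73 and 8.05 in cyclic and 10.40, 10.40, 11.00 and 10.44 in pregnant animals. None of these groups overlapped with its control. The differences were 2.21 for IFNA against placebo (SE 0.135, limma adjusted p = 6.87e-05), 2.15 on day 15 (SE 0.153, limma adjusted p = 1.63e-09) and 2.72 on day 18 (SE 0.133, limma adjusted p = 1.46e-12), or 4.63-, 4.44- and 6.58-fold.

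The second probe set rose in pregnancy on days 15 and 18 and did not pass after IFNA. On day 15 it read 6.24, 6.07 and 6.20 in cyclic and 8.12, 7.43 and 7.66 in pregnant animals, and on day 18 it read 6.95, 7.09, 6.85 and 7.12 in cyclic and 8.38, 8.82, 9.34 and 8.97 in pregnant animals. Neither pair of groups overlapped, and the differences were 1.57 (SE 0.179, limma adjusted p = 4.38e-06) and 1.88 (SE 0.155, limma adjusted p = 1.01e-08). In the biopsies it read 6.13, 5.96 and 5.64 after IFNA, 5.86, 5.59 and 5.71 after placebo, and 5.71, 5.57 and 5.42 after PBS. These groups overlapped, and the difference was 0.19 against placebo (95% confidence interval -0.14 to 0.52, limma adjusted p = 0.821). Against PBS it was 0.34 (95% confidence interval 0.01 to 0.68, limma unadjusted p = 0.0443, limma adjusted p = 0.509).

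The third probe set passed in no comparison. It read 5.12, 5.37 and 5.46 after IFNA, 5.47, 5.31 and 5.31 after placebo, and 5.38, 5.20 and 5.16 after PBS. On day 18 it read 5.88, 5.76, 5.87 and 5.77 in cyclic and 5.93, 6.22, 5.78 and 6.22 in pregnant animals. The groups overlapped, and the day 18 difference was 0.22 (SE 0.0926, limma adjusted p = 0.108). Without the third pregnant animal of day 18 it was 0.30 with a limma adjusted p of 0.0246, after quantile normalisation 0.26 with 0.0476, and with array weights 0.26 with 0.0445.

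The 3 IRF7 probe sets thus differed in their calls in 4 of the 12 combinations examined (IRF2 and IRF7, each in 6 comparisons of groups), all of them for IRF7: IFNA against placebo, IFNA against PBS, and pregnancy on days 15 and 18. At an unadjusted p the calls differed in 3 of 12, since on day 18 all 3 IRF7 probe sets had an unadjusted p below 0.05. The difference between probe sets on the same array gives a direct measure, used here only for how it moved between groups. The first minus the second IRF7 probe set averaged 3.61 ± 0.123 (SD, n = 3) after IFNA and 1.59 ± 0.193 (n = 3) after placebo, and by animal it was 3.51, 3.58 and 3.75 against 1.53, 1.44 and 1.81. An exact permutation test gave p = 0.1, the smallest that 3 against 3 arrays allow. On day 15 it averaged 1.60 ± 0.075 in pregnant and 1.02 ± 0.021 in cyclic animals (n = 3 and 3, exact permutation p = 0.1).

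On day 18 the same difference averaged 1.68 ± 0.238 (n = 4) in pregnant and 0.84 ± 0.099 (n = 4) in cyclic animals, with 2.02, 1.58, 1.66 and 1.47 against 0.70, 0.85, 0.88 and 0.93. The exact permutation p was 0.0286, the smallest that 4 against 4 arrays allow, and 0.229 after adjustment over the 24 tests of this kind. The first minus the third averaged 4.52 ± 0.482 and 2.02 ± 0.246 in the same animals, with the same exact permutation p. Of these 24 tests 3 had an unadjusted p below 0.05 and 0 passed after adjustment. On day 12, where 5 against 5 arrays allow a p of 0.00794, the difference was 1.24 in pregnant and 1.29 in cyclic animals (exact permutation p = 0.548).

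**Figure D4:**
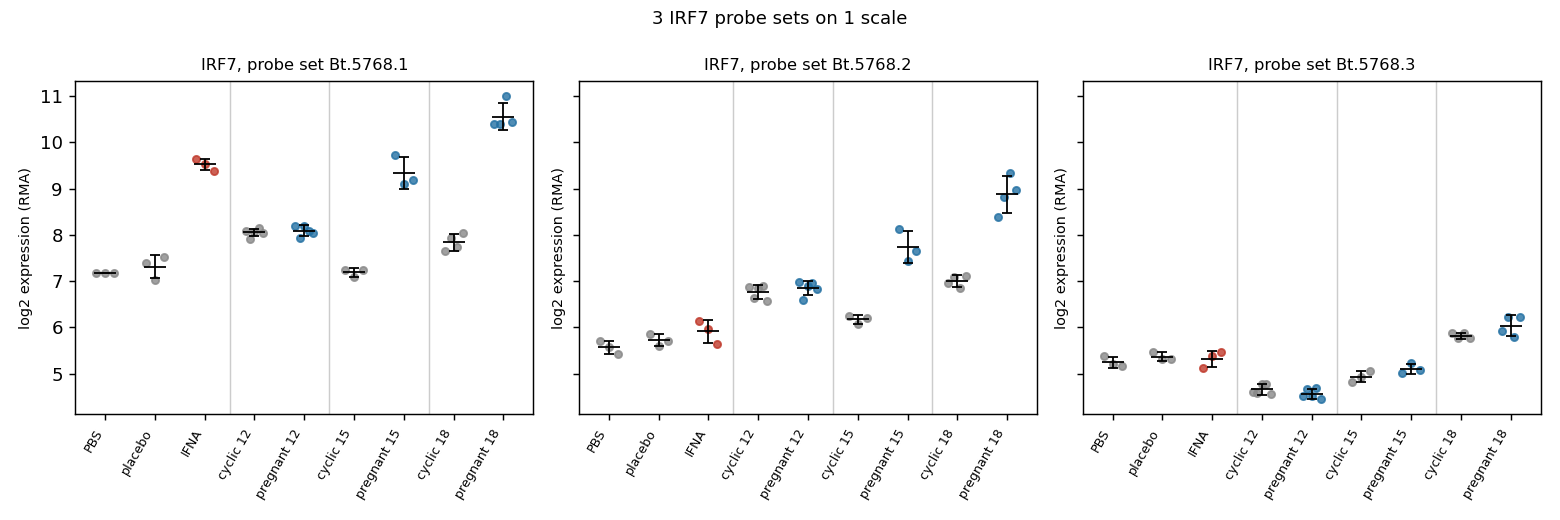
Log2 expression (RMA) of the 3 IRF7 probe sets by group on 1 vertical scale, with 1 point per animal, a line for the mean, bars for 1 SD, and grey lines between the 4 sets of arrays. The second probe set is raised in pregnant animals on days 15 and 18 but lies at 5.64 to 6.13 after IFNA, and the third lies between 4.45 and 6.22 in all groups.

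The IFNA effect was then set against the pregnancy effect. For the second IRF7 probe set the IFNA effect (IFNA minus placebo) was lower than the pregnancy effect by -1.38 on day 15 (SE 0.246, limma adjusted p = 0.0108) and by -1.68 on day 18 (SE 0.23, limma adjusted p = 0.00022). It was the single member of 10 that passed in each contrast, beside 0.183% of all probe sets that passed as lower for day 15 and 0.72% for day 18. The day 15 value stayed at -1.38 but had a limma adjusted p of 0.22 when only the arrays of the compared groups were fitted. For STAT2 the corresponding differences were 0.10 (95% confidence interval -0.24 to 0.45) and -0.12 (-0.44 to 0.20), and for IRF9 -0.24 (-0.76 to 0.27) and 0.06 (-0.42 to 0.54).

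For the first IRF7 probe set the IFNA effect was 0.06 above the day 15 effect (95% confidence interval -0.38 to 0.50) and differed by -0.51 from the day 18 effect (SE 0.199, limma adjusted p = 0.248). After quantile normalisation the latter was -0.97 with a limma adjusted p of 0.0098. These contrasts set biopsies against slaughter tissue, so the agent, the way of sampling, RNA quality and the day cannot be told apart. The GAPDH 3′ minus 5′ difference, higher in the biopsies as given above, overlapped between the groups within them: it was 1.66, 2.49 and 2.98 after IFNA and 2.83, 3.87 and 1.03 after placebo. With it as a covariate in the biopsy fit, the second IRF7 probe set differed by 0.18 between IFNA and placebo (limma adjusted p = 0.662). The first differed by 2.19 (limma adjusted p = 3.99e-05). This fit holds the biopsies alone, so it cannot test the part of RNA quality in the contrasts with slaughter tissue.

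Levels between days also set the IRF7 probe sets apart. In cyclic animals the first probe set was 0.55 lower on day 15 than on day 12 on the quantile-normalised scale and 0.87 lower in the deposited values. The third was 0.50 and 0.28 higher on the same scales, and for both probe sets the animals of the days did not overlap on either scale. The second was 0.24 and 0.60 lower, with overlap on the first scale. These comparisons cross sets of arrays and carry no test.

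IRF2, a factor that can repress the promoters that IRF1 activates, did not pass in any comparison. Its brighter probe set read 5.86, 5.92 and 5.69 after IFNA, 5.77, 5.42 and 5.95 after placebo, and 5.46, 5.33 and 5.81 after PBS. On day 15 it read 6.29, 6.22 and 6.46 in cyclic and 6.55, 6.49 and 6.47 in pregnant animals, so every pregnant animal lay above every cyclic animal, by a difference of 0.18 (SE 0.122, limma adjusted p = 0.483). On day 18 it read 6.90, 6.77, 6.88 and 6.83 in cyclic and 6.78, 7.16, 7.06 and 7.14 in pregnant animals, which overlapped. On day 12 all 10 animals read 7.14 to 7.84.

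The dimmer IRF2 probe set had low levels, from 3.79 to 5.07 over all animals. On day 18 it read 4.82, 4.75, 4.85 and 4.73 in cyclic and 5.07, 4.99, 4.95 and 4.87 in pregnant animals. The groups did not overlap, and the difference was 0.18 (SE 0.115, limma adjusted p = 0.303). The IRF2 probe sets did not differ in their calls. Their levels between days did not run in parallel: in cyclic animals the brighter was 0.91 lower on day 15 than on day 12 and the dimmer 0.52 higher on the quantile-normalised scale, without overlap.

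The pregnancy effect on RNA of STAT2, IRF9 and IRF7 differed between days 12 and 15 by a test of the difference itself. The day 15 minus day 12 term was 2.29 for IRF9 (SE 0.208, limma adjusted p = 1.88e-07), 1.35 for STAT2 (SE 0.136, limma adjusted p = 9e-07), 2.11 for the first IRF7 probe set (SE 0.194, limma adjusted p = 2.05e-07) and 1.48 for the second (SE 0.226, limma adjusted p = 0.000381). These 4 of 10 members passed beside 1.37% of all probe sets that passed as higher. From day 15 to day 18 the effect did not pass for any of them: the terms were 0.22 for STAT2 (95% confidence interval -0.07 to 0.52), -0.30 for IRF9 (-0.75 to 0.15), 0.57 for the first IRF7 probe set (0.15 to 0.99) and 0.31 for the second (-0.18 to 0.80).

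Ordered by quantile-normalised group means, the 3 rising genes had the same groups on top. For STAT2 the means were 8.86 in pregnant animals of day 18, 8.83 after IFNA and 8.66 in pregnant animals of day 15, and neighbours in this order overlapped. A gap without overlap followed, and the other 6 groups averaged 7.18 to 7.61. For IRF9 the order was 10.99 (pregnant, day 18), 10.86 (pregnant, day 15) and 10.37 (IFNA), where the pregnant groups overlapped and IFNA lay below both, and the other 6 groups averaged 8.25 to 8.90 and overlapped in order.

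For the first IRF7 probe set pregnant animals of day 18 averaged 10.37, apart from those of day 15 at 9.73, which overlapped with IFNA at 9.37. Both day 12 groups followed at 8.11 and 8.07, overlapping with each other and lying above the remaining 4 groups, which averaged 7.30 to 7.52. For the second, IFNA averaged 6.15 and stood in seventh place, below all slaughter groups. Overlap with the next group in order was found for 7 of 8 neighbours for IFNAR1, IFNAR2, JAK1 and the third IRF7 probe set. For IFNAR1 the gap lay between slaughter and biopsy groups (5.21 and 3.65). The count was 6 of 8 for STAT2, IRF9 and the second IRF7 probe set. It was 5 of 8 for the first IRF7 and the brighter IRF2 probe set, and 8 of 8 for the dimmer IRF2 probe set.

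The same animal was often highest for several members. The first pregnant animal of day 15 had the highest level of all 4 rising probe sets (STAT2, IRF9 and both responding IRF7 probe sets), and so had the third pregnant animal of day 18. In the cyclic group of day 15 the second animal was lowest for all 4. There the first was highest for all but the first IRF7 probe set, where the first and the third animal were level. The second animal was also lowest for all 4 after placebo and in the pregnant group of day 12. That placebo animal had the highest GAPDH 3′ minus 5′ difference of the biopsies (3.87), and the part of this was not tested. After IFNA the second animal was highest for STAT2, the second and the third animal were level for IRF9, and the first was highest for both IRF7 probe sets. These probe sets were read from the same RNA and the same array, so the agreement is a description.

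RNA of the interferon-stimulated genes ISG15, MX1 and MX2 was read in the same animals as a reference. The activity of ISGF3 itself was not measured. ISG15, a ubiquitin-like protein conjugated to other proteins during the interferon response, read 12.68, 12.79 and 12.90 after IFNA and 8.17, 7.76 and 7.70 after placebo. It was 4.91 higher after IFNA (SE 0.227, limma adjusted p = 1.65e-05), 5.24 higher in pregnant animals on day 15 (SE 0.378) and 4.90 higher on day 18 (SE 0.327). On day 12 the difference was 0.53 and did not pass (SE 0.292, limma adjusted p = 0.805). MX1 averaged 13.12 after IFNA and 10.08 after placebo, and MX2 11.09 and 5.68. In pregnant and cyclic animals of day 15 MX1 averaged 13.08 and 9.44, and MX2 10.68 and 5.36.

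Of 36 other genes of the pathway, 21 had a probe set with a single matching symbol, and the probe set with the highest mean stood for each. JAK2 and SOCS1 were among the 15 without one and are not analysed here. The shares beside these counts, and beside the marker counts below, are over all probe sets, dim ones and those without a symbol included. After IFNA 2 of 21 were higher than placebo, beside 0.837% of all probe sets, with a median over the 21 of 0.34 beside -0.01 over all 9155 genes, and against PBS 2 of 21 were higher beside 0.712% (median 0.18 beside 0.01). Between placebo and PBS, and on day 12, 0 of 21 passed by limma and 1 of 21 had an unadjusted p below 0.05 in each. On day 15, 3 were higher and 2 lower, beside 2.75% and 2.32% of all probe sets (median 0.08 beside -0.02). On day 18, 8 were higher and 0 lower, beside 8.84% and 10.2% (median 0.19 beside -0.02).

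USP18, which binds IFNAR2 and restrains the receptor, was the pathway gene with the highest difference in both IFNA comparisons and in pregnancy on days 15 and 18. It was higher by 3.58 after IFNA than after placebo (SE 0.214, limma adjusted p = 6.31e-05), by 3.40 than after PBS, by 3.60 on day 15 (SE 0.18) and by 3.58 on day 18 (SE 0.156), and its other 3 probe sets also rose in all these comparisons. NMI, a STAT-binding protein, was higher by 1.34 after IFNA than after PBS, by 0.77 on day 15 and by 1.46 on day 18. Its difference from placebo was 1.27 with a limma adjusted p of 0.057, and its other probe set passed on days 15 and 18 but not against PBS (1.38, limma adjusted p = 0.0549).

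IRF3, a factor activated by phosphorylation during infection, rose by 0.86 on day 15 (SE 0.0973) and 1.02 on day 18 (SE 0.0843), and its difference of 0.96 after IFNA against placebo did not pass. IRF8, a factor of myeloid cells and B cells, was higher by 0.81 after IFNA than after placebo (limma adjusted p = 0.0369) and by 0.72 on day 18, while its other probe set did not pass (-0.15 and 0.15). Against PBS the IRF8 difference was 0.47 and did not pass (limma adjusted p = 0.243), and placebo minus PBS was -0.33 (limma adjusted p = 0.999). On day 18 IRF5 was higher by 0.59 and its other 2 probe sets also passed, the phosphatase PTPN1 by 0.59, STAT4 by 0.46 (its other probe set, at 0.15, did not pass) and STAT6 by 0.35. The genes that fell on day 15 were the phosphatase PTPN6 by 0.31 and CISH, a feedback inhibitor of STAT5, by 0.28.

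**Figure D5:**
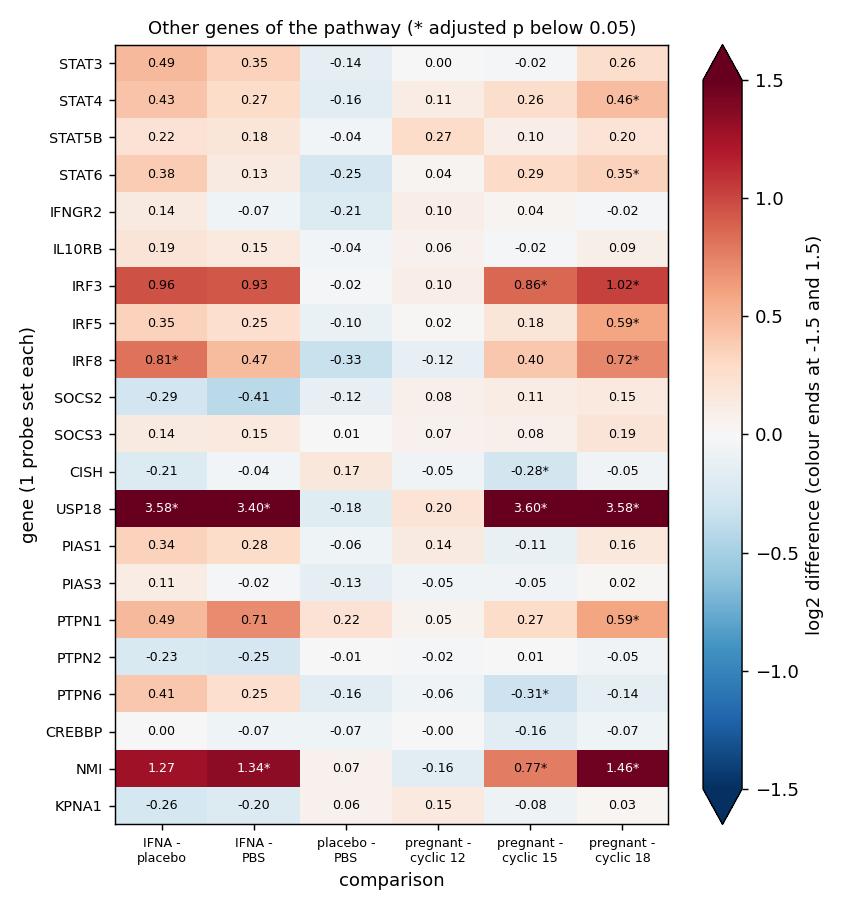
Log2 differences of 21 other pathway genes in 6 comparisons, 1 probe set per gene, with the value in each cell and an asterisk where the limma adjusted p was below 0.05. USP18 lies at 3.40 to 3.60 in both IFNA comparisons and on days 15 and 18, while placebo against PBS and day 12 hold no asterisk.

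Genes whose pattern was most like that of a member were found by the root mean square difference over 4 log2 differences (IFNA minus placebo and pregnancy on days 12, 15 and 18), among 9027 genes. The nearest to STAT2 were TMEM140 (0.08), WARS1 (0.088) and TAP1 (0.097). The nearest to IRF9 were PNPT1 (0.168), DHX58 (0.174) and DTX3L (0.186), and to the first IRF7 probe set DTX3L (0.15), PML (0.176) and PNPT1 (0.179). The nearest to IFNAR1 were DDO (0.038), TGFBR1 (0.047) and DNAAF11 (0.059). This likeness rests on 4 values per gene, which share arrays between members.

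Markers of macrophages and dendritic cells moved with STAT2, IRF9 and IRF7 in some comparisons. Of 7 measured, 3 were higher after IFNA than after placebo (C1QB, C1QC and CSF1R), beside 0.837% of all probe sets. Against PBS 2 were higher (C1QB and C1QC), beside 0.712%. On day 15, 1 was higher (AIF1), beside 2.75%, and on day 18, 5 were higher, beside 8.84%. Their mean log2 level per animal was 8.74 to 9.15 after IFNA and 7.52 to 8.14 after placebo, 8.08 to 8.18 and 7.51 to 8.09 in pregnant and cyclic animals on day 15, and 9.09 to 9.64 and 8.18 to 8.37 on day 18. Their part in the results was not tested.

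Of 6 endothelial markers 4 were lower in pregnant animals on day 18, where IFNAR1 was lower, beside 10.2% of all probe sets. The mean level of the 6 was 7.53 to 7.81 against 7.96 to 8.60 in cyclic animals. Their part in the IFNAR1 result was not tested. Of the same 6, PLVAP (-1.43) and PECAM1 (-1.01) were lower after IFNA than after PBS, where 36 of all 24016 probe sets passed as lower. PECAM1 was lower on day 15 (-0.69), beside 2.32% of all probe sets. For IFNA against placebo 0 passed by limma, and 2 had an unadjusted p below 0.05. Of 6 epithelial markers CDH1 and CLDN4 were higher in pregnant animals on day 15 (0.64 and 1.32), beside 2.75% of all probe sets. The same 2 were higher on day 18 (0.51 and 0.78), beside 8.84%, and KRT18 was lower (-0.38), beside 10.2%. The mean epithelial level per animal on day 15 was 9.53 to 9.63 in pregnant and 9.21 to 9.31 in cyclic animals.

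Of 6 stromal markers 0 passed by limma for IFNA against PBS, where 5 had an unadjusted p below 0.05 and the median difference was -0.59, and COL3A1 was lower on day 18 (-0.46). ESR1 was lower on day 18 (-0.70). Of 4 measured B and plasma cell markers IGHM was higher after IFNA than after placebo (1.60) and on day 18 (1.28). Of 2 measured neutrophil markers S100A8 was higher on day 18 (0.91). Against PBS 0 of these 2 passed by limma, but both had an unadjusted p below 0.05 after IFNA (median -1.36) and after placebo (median -0.77). Their mean level per animal was 6.79 to 7.06 after IFNA, 6.88 to 8.14 after placebo and 8.22 to 8.46 after PBS. Beside these markers, 8.84% of all probe sets passed as higher on day 18 and 10.2% as lower. The part of these markers in the results was not tested. Of 4 measured trophoblast markers 0 passed in any of the 6 comparisons by limma, and 1 had an unadjusted p below 0.05, on day 15. IFNT2, an interferon tau gene, averaged 5.13 after IFNA, 4.88 and 4.72 in pregnant and cyclic animals on day 15 and 5.76 and 5.62 on day 18.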

How the data were processed

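The values analysed are the authors' deposited log2 levels of each probe set; the submitters' processing notes name RMA and affy without versions. Each heifer gave 1 array; the 33 arrays limit the precision. Sorted values matched within 4 sets of arrays and differed between them, so separate normalisation of the sets was inferred; it is not stated. Of the 24128 probe sets 112 controls were left out. Symbols came from the array annotation, updated by gene identifier through RefSeq: 13292 probe sets had 1 symbol, 86 several, 10638 none.

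limma 3.58.1 in R 4.3.3 (lmFit, eBayes, 1 mean per group) was fitted on 9 biopsy arrays, 24 slaughter arrays, or all 33 for IFNA against pregnancy effects, and tested on simulated data. Probe sets of 1 gene were compared by two-sided exact permutation of within-array differences. Alternatives were quantile normalisation, a filter on low means, the compared groups alone, a replicate block, array weights, a GAPDH covariate, a pooled control and leaving out each animal. Likeness left out symbols starting with LOC. All members' probe sets, and pathway genes past the threshold, are named; unpassed ones are named where they bear on a result. Members and lists were chosen with earlier results of these data known. The main fits did not treat animals with the same replicate number as paired, and a check of these numbers is given below.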

Additional observations from a re-analysis of the deposited data

Results flagged for a closer look

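Within groups of 4 or 5 animals, 1 animal stood apart from the rest in 4 of the 40 combinations of probe set and group checked, where chance gives about 1 in 20. IFNAR2 read 8.01 in the third cyclic animal of day 12, and the next highest read 7.68. The dimmer IRF2 probe set read 4.87 in the fourth pregnant animal of day 12, and the next highest read 4.37. The first IRF7 probe set read 11.00 in the third pregnant animal of day 18, and the next highest read 10.44. IRF9 read 9.24 in the second cyclic animal of day 18, and the next highest read 8.80.

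The effects of pregnancy on days 12 and 15, or of IFNA and pregnancy, differed by limma's interaction term in 6 of the 40 combinations of probe set and contrast tested. The day 15 effect exceeded the day 12 effect by 2.29 for IRF9, 1.35 for STAT2, 2.11 for the first IRF7 probe set and 1.48 for the second. Beside these, 1.37% of all probe sets passed as higher. The IFNA effect on the second IRF7 probe set differed by -1.38 from the day 15 effect and by -1.68 from the day 18 effect. Beside these, 0.183% and 0.72% of all probe sets passed as lower. No member passed for day 18 minus day 15, beside 0.208% of all probe sets. The members were chosen with earlier results known, so the count tests nothing.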

How the results depend on the processing

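Of 304 alternatives for the 21 member values that passed, 303 kept direction and call and 0 reversed. The exception was the second IRF7 probe set for IFNA against pregnancy on day 15, fitted on the compared groups alone (-1.38, limma adjusted p = 0.22), which took the count of members from 1 to 0. For day 18 quantile normalisation took the count from 1 to 2, and leaving out 1 animal gave 1 to 2: without the third placebo animal IFNAR1 passed at 0.90 (limma adjusted p = 0.0392). That animal had the lowest GAPDH 3′ minus 5′ difference of the biopsies (1.03). Of 1206 alternatives for the 79 values that did not pass, 6 passed, and 29 of these values changed sign in some alternative. The replicate block changed no member's call. Same-numbered animals correlated from -0.337 to 0.368, over 0.1 in 6 of 21 pairs, and 12 of 33 arrays correlated best with their own number. By set these were 2 of 9 in the biopsies, 5 of 10 on day 12, 4 of 6 on day 15 and 1 of 8 on day 18. Same-numbered pairs correlated from 0.0296 to 0.204 on day 12 and from 0.0238 to 0.153 on day 15. The check does not settle whether animals of those days were paired.

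Counts over all probe sets moved more than 1.5 times. IFNA against placebo gave 208, and 124 with the compared groups alone, 323 with array weights, 338 with the GAPDH covariate, 318 against the placebo and PBS groups averaged, and 136 to 257 with 1 animal left out. IFNA against PBS gave 207, 132 with the replicate block, 433 with weights and 110 to 232 with 1 animal left out. Day 12 gave 1 and 0 to 3 in the alternatives, and day 15 gave 1218, 465 with the compared groups alone and 601 to 1122 with 1 animal left out. The day 15 minus day 12 term gave 477 and 282 to 476 with 1 animal left out. The day 18 minus day 15 term gave 50, 32 with low means left out, 23 with the compared groups alone and 21 to 81 with 1 animal left out. IFNA against pregnancy gave 89 on day 15 and 262 on day 18, then 20 and 125 with the replicate block, 2 and 19 with the compared groups alone, 1026 and 1269 with weights, and 17 to 414 and 106 to 625 with 1 animal left out. Quantile normalisation turned the split of the day 18 minus day 15 term from 40 higher and 10 lower into 49 and 22, and that of IFNA against pregnancy on day 15 from 45 and 44 into 28 and 44.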
